A study of Arabidopsis thaliana with 208 samples.

Results

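SALK_012253 is an Arabidopsis insertion line in the Col background, from a public collection in which T-DNA of a soil bacterium was inserted at random sites. Its root transcripts are described here at each of 2 nitrate supplies. The 8 libraries labelled SALK_012253 were chosen by their labels, 4 at 1 mM KNO3 and 4 at 10 mM KNO3, which make 2 of the 26 groups of 4 libraries (13 lines at 2 concentrations) in the series. They were set against 8 libraries of the wild type Col, 4 at each concentration, and against 56 libraries of the other 7 SALK lines of the series, 28 at each concentration. Each of those lines, SALK_146141, SALK_100002, SALK_094437C, SALK_085964C, SALK_070847C, SALK_035980 and SALK_015182, has an insertion of its own. All roots came from seedlings of 9 days. Each biological replicate joined 2 plates, and the labels do not say whether the line was backcrossed or how many insertions it holds. KCl was the same in both media, so potassium changed together with nitrate. Transcripts were counted by BRAD-seq, which sequences tags from the 3′ side of messenger RNA, so a value is a number of tags per gene. Library totals were 5535735 to 11329653 counts in SALK_012253, 6629042 to 12321584 in Col and 3981966 to 12765164 in the other 7 SALK lines. In the 10 mM replicates 3 of SALK_085964C and SALK_035980 the file headers carry the other line's name. These libraries belong to the reference of 7 lines. They also enter the test against Col at 10 mM, through the filter, the scaling and the estimate of spread between replicates. Levels are tags per 1e6 counts of a library (CPM) with TMM scaling, each concentration was tested by itself, and a gene is called where its adjusted p is under 0.05. The p-values and SE against the other 7 SALK lines rest on the spread between replicates of a line. They leave out the spread between lines.

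The labels name no gene for the insertion. From general knowledge of the stock it is taken here to lie in NAC032 (AT1G77450). NAC proteins are a large plant family of transcription factors, and NAC032 belongs to their ATAF clade with ATAF1, ATAF2 and NAC102. Genes of this clade are known for their rise under abiotic stress and for roles in senescence and in hormone and defence responses. A T-DNA can stop, shorten or raise the transcript of the gene it lies in, and a tag near the 3′ end does not show whether the transcript is whole.

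NAC032 tag levels lay above those of both references in every SALK_012253 library, and 3 of the 4 comparisons passed the test, the exception being Col at 10 mM. At 1 mM NAC032 had 19.6, 26.3, 18.8 and 22.5 CPM in the 4 SALK_012253 libraries, against 9.79, 9.45, 10.0 and 9.90 CPM in the 4 Col libraries. The lowest SALK_012253 library stood above the highest Col library, and the Col libraries lay close together. The log2 change of NAC032 against Col was 1.16 ± 0.21 (SE; adjusted p of 0.00295, edgeR quasi-likelihood test with Benjamini-Hochberg adjustment). In the 28 libraries of the other 7 SALK lines NAC032 had a lowest value of 5.64, a median of 8.91 and a highest value of 12.9 CPM at 1 mM. With the second sequencing run alone, the log2 change against Col was 0.94 and was not called (0.0508). The log2 change against the 7 lines was 1.31 ± 0.14 (SE; adjusted p of 6.47e-08, edgeR). NAC032 was the only gene of 19388 (0.00516%) whose 4 SALK_012253 libraries all lay above all 28 libraries of these lines at 1 mM, and no gene lay below all 28.

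At 10 mM NAC032 had 13.07, 14.3, 12.63 and 13 CPM in SALK_012253, against 7.38, 8.12, 5.29 and 5.93 CPM in Col. The groups did not overlap. The level of SALK_012253 was lower than its own level at 1 mM, as were that of Col and the median of the other 7 SALK lines. The effect against Col at 10 mM minus that at 1 mM was -0.19 ± 0.30 (SE) on the log2 scale (unadjusted p of 0.517, edgeR). The log2 change of NAC032 against Col was 0.97 ± 0.21 (SE), with an adjusted p of 0.0684 by edgeR, which missed the threshold of 0.05. Against the other 7 SALK lines, which had a lowest value of 4.62, a median of 7.98 and a highest value of 10.96 CPM, the log2 change was 0.78 ± 0.15 (SE; adjusted p of 0.0295, edgeR). That last call is close to the threshold: it was lost without any 1 of the 4 SALK_012253 replicates, and without SALK_035980 among the references. The call of NAC032 against Col at 10 mM is equally tied to the setting, since it was made with the strip code of the titles as a covariate (adjusted p of 6.04e-04, edgeR), with the replicate number as a block (0.00475) and by DESeq2 (0.019). At 10 mM 2 genes (0.0104% of 19157) lay above all 28 libraries, NAC032 and EMB2768. EMB2768, a tyrosyl-tRNA synthetase gene, averaged 11.1 ± 0.28 CPM in SALK_012253 and 8.88 ± 1.09 CPM in the other 7 lines (SD, n = 4 and 28), and was not called (log2 change 0.32, adjusted p of 1, edgeR). An exact permutation test of the single gene NAC032 over libraries, two-sided, gave p = 0.0286 against Col at each concentration. Against the 28 libraries the exact permutation test, two-sided, gave p = 5.56e-05 at each concentration. Both are the smallest values these tests can give, so they add nothing to the lack of overlap. The 28 libraries are 4 replicates of each of 7 lines, and the permutation treated them as independent. It therefore does not test 1 line against 7 lines.

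**Figure D1:**
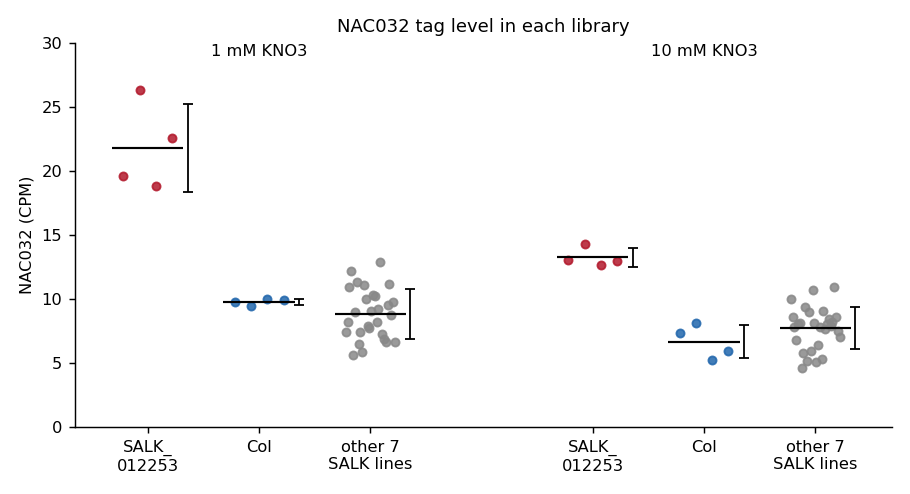
NAC032 level in CPM (vertical axis) in each library of SALK_012253 (red), Col (blue) and the other 7 SALK lines (grey), at 1 mM KNO3 on the left and 10 mM KNO3 on the right. Horizontal bars are means and error bars are SD over libraries (n = 4, 4 and 28); the SALK_012253 points lie above every other point at the same concentration.

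Among the 13 lines of the series NAC032 was highest in SALK_012253 at both concentrations, with 21.8 ± 3.41 CPM at 1 mM and 13.3 ± 0.73 CPM at 10 mM (SD, n = 4). The next line in order was GABI_699B09, with 13.6 ± 4.99 CPM at 1 mM and 10.67 ± 1.92 CPM at 10 mM. The other 11 lines, Col among them, ran from 10.1 CPM in SALK_094437C down to 7.58 CPM in SALK_100002 at 1 mM, and from 8.53 CPM in SALK_146141 to 6.40 CPM in SAIL_1207_H04 at 10 mM. Among these 11 lines neighbours in the order differed by less than their SD. The other ATAF genes did not pass the test. At 1 mM ATAF1 averaged 26.6 ± 2.96 CPM in SALK_012253 and 33.8 ± 2.24 CPM in Col, without overlap (log2 change -0.35, adjusted p of 0.265, edgeR), and ATAF2 averaged 64.8 ± 9.22 CPM in SALK_012253 and 86.1 ± 14.0 CPM in Col (-0.41, adjusted p of 0.303). NAC102 averaged 212 ± 30.4 CPM in SALK_012253 and 214 ± 22.2 CPM in Col at 1 mM. At 10 mM the adjusted p of each of these 3 genes was 0.78 or more.

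The loci next to NAC032 on the chromosome were looked at because a T-DNA can act on neighbours. None of the 5 nearest tested loci on each side was called at either concentration against either reference, where 0.139% of all genes or fewer were called, so that a count of 0 among 10 loci says little. Against Col at 1 mM their log2 changes ran from -0.33 for AT1G77420 to 0.82 for AT1G77400. AT1G77400, a gene with few tags, averaged 3.73 ± 1.94 CPM in SALK_012253 and 2.16 ± 0.77 CPM in Col at 1 mM (adjusted p of 0.318, edgeR), and 3.26 ± 0.82 CPM in SALK_012253 and 1.88 ± 0.37 CPM in Col at 10 mM (0.722). PBC2, a proteasome subunit gene and the nearest tested locus on one side, averaged 112 ± 2.97 CPM in SALK_012253 and 109 ± 11.8 CPM in Col at 1 mM. AT1G77460, the nearest on the other side, averaged 8.17 ± 1.39 CPM in SALK_012253 and 7.13 ± 1.82 CPM in Col.

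How many genes separated SALK_012253 from Col at 1 mM depended on the fit. Counts below come from the fit without a block unless another is named. At 1 mM 27 of 19388 genes tested were called (0.139%), 19 higher in SALK_012253 (0.098%) and 8 lower (0.0413%), and 2381 genes had an unadjusted p under 0.05 (12.3%; 6.2% higher and 6.08% lower). In 25 of the 27 the 4 SALK_012253 libraries did not overlap the 4 Col libraries, which also held for 3.08% of all genes tested in the higher direction and 2.84% in the lower, and 13 differed by at least 2-fold. This count rests on single libraries and on the model: it was 142 without Col replicate 1, 45 without SALK_012253 replicate 4, 13 without Col replicate 2 and 11 without SALK_012253 replicate 2. With the strip code of the titles (13 strips of 8 libraries) as a covariate, the test of SALK_012253 against Col at 1 mM called 493 genes (275 higher, 218 lower), all 27 among them, and DESeq2 called 103. Same-numbered SALK_012253 and Col libraries stood on the same strip in 7 of 8 pairs, and with the replicate number as a block 271 genes were called at 1 mM (147 higher, 124 lower), all 27 among them. NAC032, AT5G08250, AT3G25150, AT5G35935, AT5G35170, EXPA6, AT1G03820, AT1G18980 and AT2G36430 were called at 1 mM in each of the 8 fits that left out 1 replicate, and the other 18 genes were lost in at least 1 of them. At 10 mM 5 of 19157 genes were called (0.0261%), 3 higher (0.0157%) and 2 lower (0.0104%), with 1314 at an unadjusted p under 0.05 (6.86%; 3.18% higher and 3.67% lower). The groups at 10 mM did not overlap in 1.26% of all genes in the higher direction and 1.39% in the lower. With strip as a covariate 10 were called at 10 mM and with the block 8, the 5 among them each time, and without SALK_012253 replicates 2, 3 or 4 or Col replicate 1 there were 3 each time.

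The concentrations share no library, so a gene called at both is a repeat of the measurement. There were 3 such genes of 18975 tested at both (0.0158%), which is 11.1% of the 27 genes called at 1 mM and 60% of the 5 called at 10 mM. They are AT5G08250, AT3G25150 and AT5G35935, and all 3 were called at both concentrations in each fit that left out 1 replicate. With sequencing run 1 alone AT5G35935 was called at neither concentration (adjusted p of 0.238 at 1 mM and 0.0867 at 10 mM, edgeR). AT5G08250 was not called at 10 mM with either run alone, while AT3G25150 kept both calls with either run. The fit with the replicate block and that with the strip code each called 6 genes at both.

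AT5G08250, a cytochrome P450 family gene of unknown function, was lower in SALK_012253. At 1 mM it had 7.36, 5.89, 7.94 and 6.19 CPM in SALK_012253, against 19.1, 17.3, 23.9 and 18.8 CPM in Col. At 10 mM it had 3.1, 2.62, 3.06 and 2.22 CPM in SALK_012253, against 8.89, 8.86, 6.22 and 7.77 CPM in Col. The groups did not overlap at either concentration. AT5G08250 fell by 1.53 ± 0.15 (SE) on the log2 scale at 1 mM (adjusted p of 3.73e-10, edgeR) and by 1.53 ± 0.26 at 10 mM (adjusted p of 0.00251). Against the other 7 SALK lines it fell by 0.76 ± 0.12 at 1 mM (adjusted p of 5.01e-04, edgeR), and at 10 mM the log2 change was -0.94 ± 0.22, which was not called (0.478) but was with the replicate number as a block (0.0466) and in 1 fit of both concentrations (0.0219). SALK_012253 had the lowest mean of the 13 lines at both concentrations. The SALK lines themselves spread widely: at 1 mM SALK_012253 averaged 6.84 ± 0.97 CPM, SALK_146141 8.03 ± 0.98 CPM, SALK_085964C 8.66 ± 0.96 CPM and SALK_094437C 8.82 ± 1.03 CPM, while SALK_015182 reached 17.5 ± 2.35 CPM and Col 19.8 ± 2.85 CPM. Low AT5G08250 was thus shared by several SALK lines, and SALK_012253 and SALK_146141 differed by little more than their SD.

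AT3G25150, which encodes a protein with an NTF2 domain and an RNA-recognition motif, was higher in SALK_012253. It had 69.7, 78.4, 70.9 and 65.2 CPM in SALK_012253, against 25.3, 18.9, 22.3 and 25.5 CPM in Col at 1 mM, and 99.2, 103.9, 68.1 and 109 CPM in SALK_012253, against 45.7, 39.2, 44.6 and 41.5 CPM in Col at 10 mM. The log2 change was 1.63 ± 0.15 (SE) at 1 mM (adjusted p of 1.62e-10, edgeR) and 1.15 ± 0.17 at 10 mM (2.40e-04). Set against the other 7 SALK lines, however, AT3G25150 did not differ detectably: the log2 change was 0.04 ± 0.11 at 1 mM and 0.06 ± 0.13 at 10 mM. Col had the lowest mean of the 13 lines at both concentrations, 23.0 ± 3.1 CPM at 1 mM, while the 12 insertion lines lay between 60.2 and 73.7 CPM. SALK_012253 ranked 3 of 13 at 1 mM and 4 of 13 at 10 mM, and Col lay below the mean of every insertion line.

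AT5G35935, annotated as a pseudogene, was also higher in SALK_012253 than in Col. It had 8.66, 7.88, 9.72 and 8.06 CPM in SALK_012253, against 3.01, 3.48, 2.48 and 2.53 CPM in Col at 1 mM, and 9.70, 8.89, 8.38 and 12.4 CPM in SALK_012253, against 3.69, 2.57, 3.17 and 3.29 CPM in Col at 10 mM. The groups did not overlap at either concentration, and the log2 change was 1.56 ± 0.24 (SE) at 1 mM (adjusted p of 1.87e-04, edgeR) and 1.63 ± 0.25 at 10 mM (2.40e-04). All 8 SALK lines averaged more than Col, from 7.83 ± 3.97 CPM in SALK_070847C to 11.9 ± 0.99 CPM in SALK_146141 at 1 mM, while SAIL_1207_H04 and GABI_699B09 had 0.32 ± 0.08 and 0.31 ± 0.12 CPM. Against the other 7 SALK lines the log2 change of AT5G35935 was -0.28 at 1 mM and -0.34 at 10 mM, neither called.

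**Figure D2:**
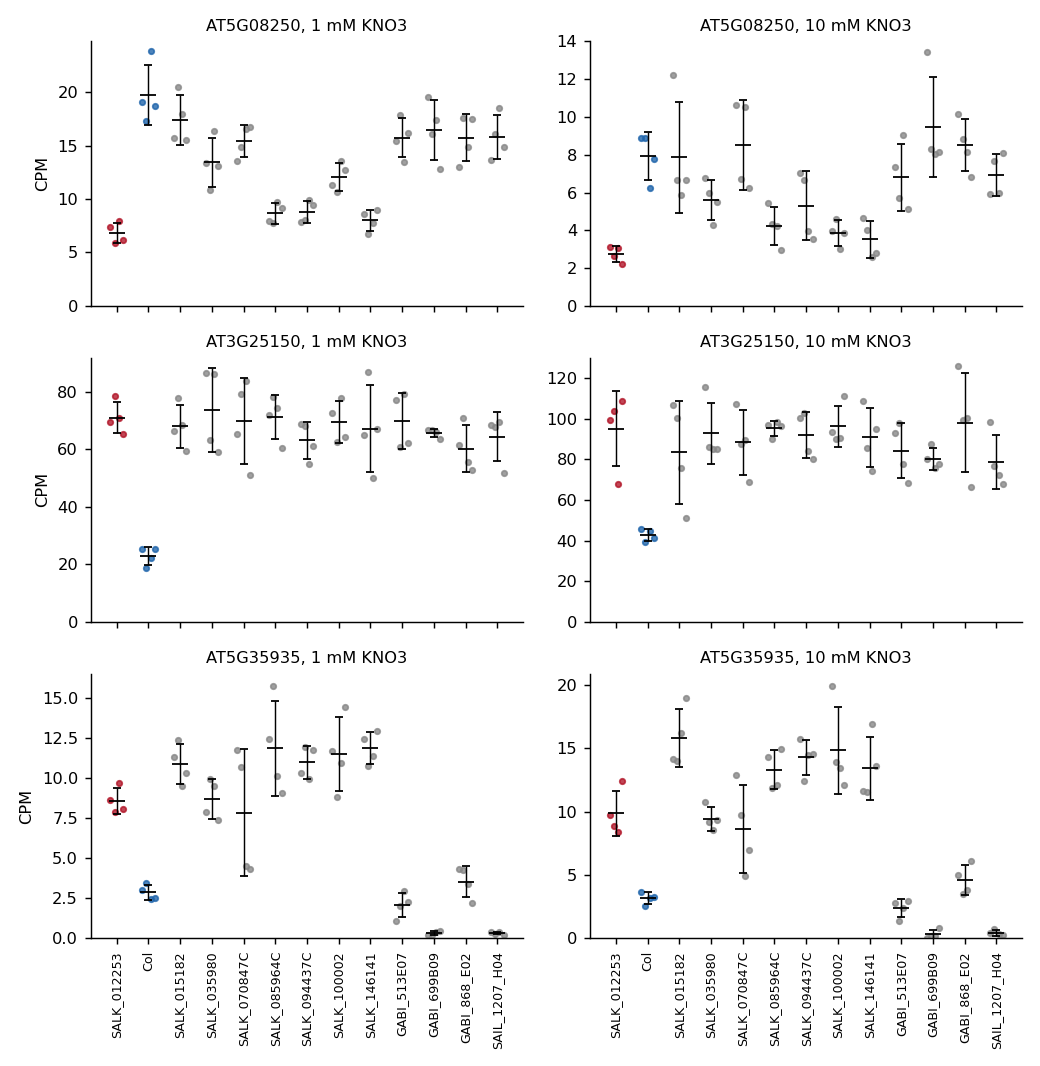
Level in CPM of AT5G08250, AT3G25150 and AT5G35935 (rows) in each library of the 13 lines, at 1 mM KNO3 (left) and 10 mM KNO3 (right), with SALK_012253 in red, Col in blue and the other lines in grey. Horizontal bars are means and error bars SD (n = 4); AT5G08250 is lowest in SALK_012253, AT3G25150 is low in Col alone, and AT5G35935 is higher in the SALK lines than in Col.

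The second reference sorts the 27 genes called at 1 mM. Both comparisons use the same 4 SALK_012253 libraries, so the values below are a description. In 11 of the 27 the log2 change against the other 7 SALK lines was under 0.25 in size, and in 11 it was at least 0.5 in the direction seen against Col. Genes of the first kind include AT1G18980, a cupin family gene, with 94.9 ± 14.8 CPM in SALK_012253, 53.2 ± 8.70 CPM in Col and 92.5 ± 14.4 CPM in the other 7 lines (SD, n = 4, 4 and 28). They also include AT1G52600, a signal peptidase family gene (77.7 ± 6.76 CPM in SALK_012253, 51.2 ± 9.56 CPM in Col, 76.1 ± 9.65 CPM in the other 7 lines), and AT5G66540, a gene for a U3 small nucleolar ribonucleoprotein (33.6 ± 4.81, 22.3 ± 4.02 and 33.2 ± 4.74 CPM in the same order of groups). In these genes the means of SALK_012253 and the other SALK lines differed by less than their SD, and the Col mean was below both. Over the 27 genes the Col mean was the lowest or highest of the 13 lines in 19, the SALK_012253 mean in 15, and the pair stood at opposite ends in 11. The Col and SALK_012253 libraries chose these genes, so extreme ranks are in part built in.

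NAC032, AT5G08250 and AT1G03820 were called against both references at 1 mM. AT1G03820, whose product resembles the cotton fibre protein E6, had 47.0, 43.9, 27.0 and 26.9 CPM in SALK_012253, against 20.03, 22.3, 16.7 and 15.5 CPM in Col. Replicates 1 and 2 of SALK_012253 lay well above replicates 3 and 4. The log2 change of AT1G03820 was 0.96 ± 0.17 (SE) against Col (adjusted p of 0.00295, edgeR) and 0.63 ± 0.12 against the other 7 SALK lines (0.019). The call against the 7 lines was lost in 8 of 27 alternatives. Among them were the fits without SALK_012253 replicate 1 (log2 change 0.48) or replicate 2 (0.53), limma-voom (0.60), and the fit without SALK_146141 (0.40), the line in which AT1G03820 averaged 8.83 ± 2.42 CPM while the other 6 averaged 23.2 to 32.8 CPM.

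**Figure D3:**
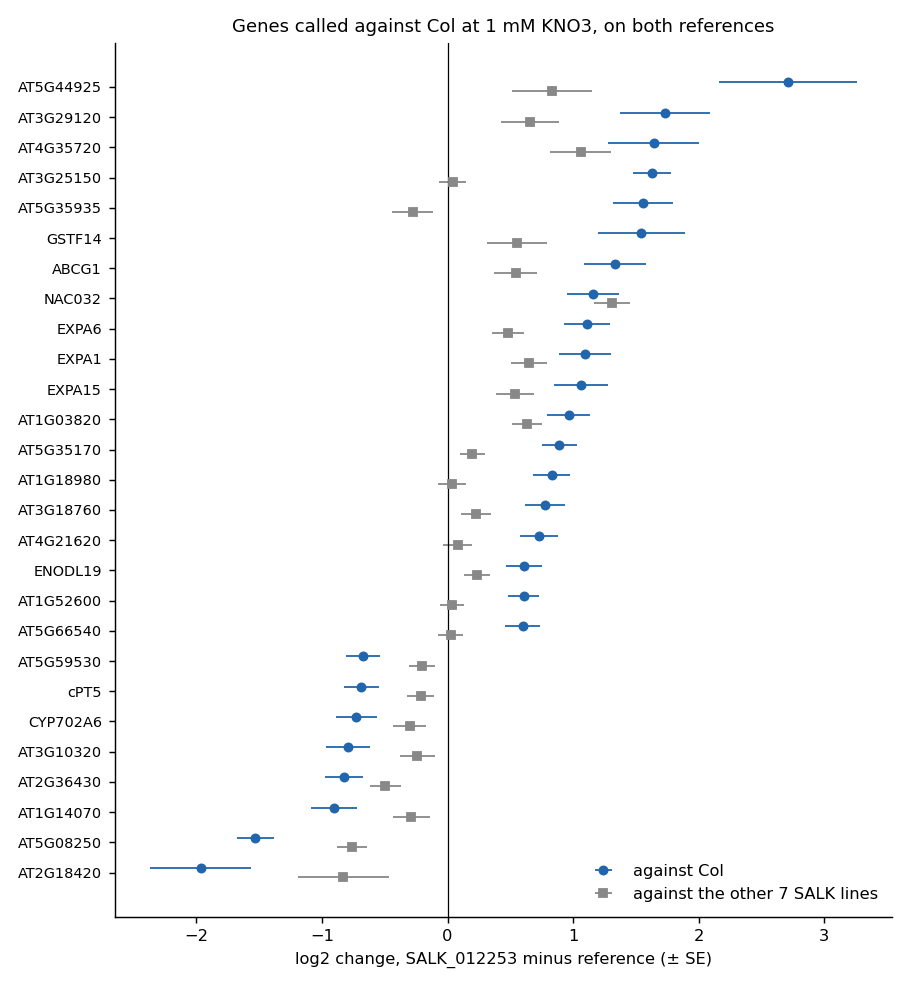
Log2 change (horizontal axis, SALK_012253 minus reference, with SE) of the 27 genes called against Col at 1 mM KNO3, against Col (blue circles) and against the other 7 SALK lines (grey squares). NAC032 has about the same change on both references, while AT3G25150, AT1G18980, AT1G52600 and AT5G66540 lie near 0 against the other SALK lines.

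Among the genes higher than Col at 1 mM were expansins, a family singled out after the values were seen. Expansins loosen the cell wall and let cells extend, and 3 of them were called. EXPA6 had 31.4, 30.5, 30.6 and 20.2 CPM in SALK_012253, against 14.6, 10.5, 10.9 and 16.4 CPM in Col (log2 change 1.11 ± 0.18 SE, adjusted p of 4.33e-04, edgeR). EXPA1 had 47.0, 47.1, 28.5 and 25.6 CPM in SALK_012253, against 16.3, 12.6, 24.0 and 17.1 CPM in Col (1.098 ± 0.206, adjusted p of 0.00425). The groups did not overlap in either gene, but in EXPA1 the lower pair of SALK_012253 libraries came close to the highest Col library. EXPA15 had 150.0, 158, 93.4 and 92.5 CPM in SALK_012253, against 61.0, 45.4, 71.4 and 59.4 CPM in Col (1.06 ± 0.21, adjusted p of 0.011). In EXPA1 and EXPA15, as in AT1G03820, replicates 1 and 2 of SALK_012253 were the high ones.

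The whole expansin family was then counted, a list chosen after these values were seen. It has 34 members, of which 21 passed the filter on low counts at 1 mM. Of these, 3 were called higher (0.098% of all genes were), 0 were called lower (0.0413% of all genes were) and 14 lay above 0, with a median log2 change of 0.27 against 0.00 over all genes tested (50% above 0). EXPA4 averaged 151 ± 29.5 CPM in SALK_012253 and 82.1 ± 11.8 CPM in Col at 1 mM (log2 change 0.88, adjusted p of 0.0632, edgeR), and EXPB3 averaged 425 ± 53.2 CPM in SALK_012253 and 242 ± 45.9 CPM in Col (0.81, adjusted p of 0.0632). With the replicate block, as with strip as a covariate, EXPA4 and EXPB3 were called too, with adjusted p-values of 0.00195 and 1.55e-04 under the block (edgeR). Against the other 7 SALK lines at 1 mM no expansin was called, though EXPA1 (0.0112) and EXPB3 (3e-04) were with the block and EXPA6, EXPA4 and EXPB3 with strip as a covariate. In the fit without either the log2 changes against these lines were 0.48 for EXPA6, 0.65 for EXPA1 and 0.54 for EXPA15. At 10 mM no expansin was called against Col: EXPA6 averaged 23.3 ± 5.63 CPM in SALK_012253 and 14.7 ± 2.01 CPM in Col (0.67, adjusted p of 0.682, edgeR), and EXPA4 averaged 140 ± 14.8 CPM in SALK_012253 and 139 ± 6.86 CPM in Col. The 10 mM median of the 21 members was 0.24, with 17 above 0.

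**Figure D4:**
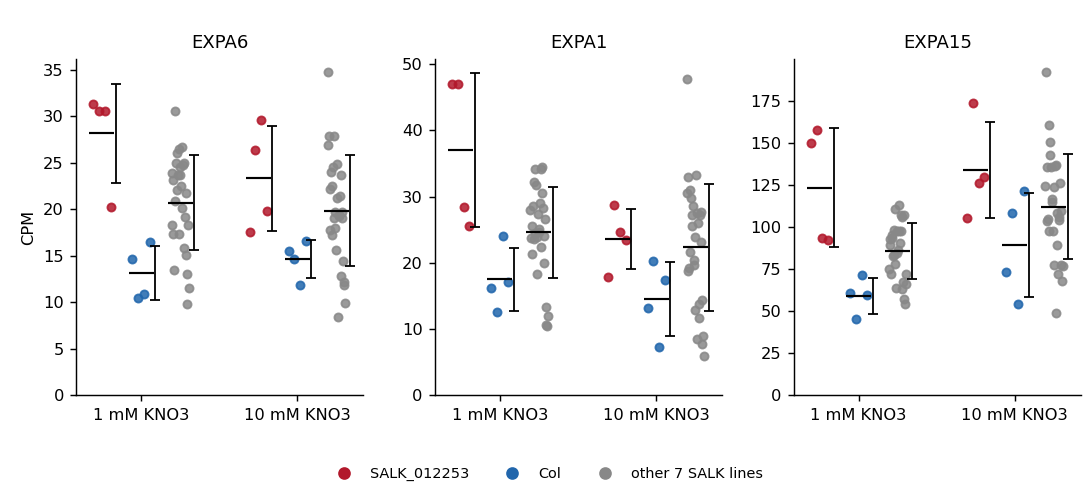
Level in CPM of EXPA6, EXPA1 and EXPA15 in each library of SALK_012253 (red), Col (blue) and the other 7 SALK lines (grey), at 1 mM and 10 mM KNO3. Horizontal bars are means and error bars SD (n = 4, 4 and 28); at 1 mM the SALK_012253 points lie above the Col points and among or above those of the other SALK lines.

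Other genes were higher than Col at 1 mM without overlap. ABCG1, an ABC transporter gene, had 9.79, 8.11, 5.67 and 4.09 CPM in SALK_012253, against 2.41, 2.99, 3.47 and 2.21 CPM in Col (log2 change 1.33 ± 0.25 SE, adjusted p of 0.00402, edgeR). GSTF14, a glutathione S-transferase gene, had 67.1, 42.9, 77.4 and 49.6 CPM in SALK_012253, against 30.9, 11.6, 21.7 and 18.2 CPM in Col (1.54 ± 0.35, adjusted p of 0.0367). Neither pair of groups overlapped. In the other 7 SALK lines GSTF14 ran from 16.0 to 97.1 CPM with a median of 35.7 CPM, so SALK_012253 lay inside their range. AT4G35720, of unknown function, had 14.2, 12.99, 10.36 and 7.01 CPM in SALK_012253, against 4.82, 4.06, 4.21 and 1.48 CPM in Col (1.64 ± 0.36, adjusted p of 0.0287), and 1.06 ± 0.24 was its log2 change against the other 7 SALK lines (not called, adjusted p of 0.133).

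The remaining genes called higher were AT5G35170, an adenylate kinase family gene (log2 change 0.89 ± 0.14 SE, adjusted p of 1.87e-04, edgeR), AT3G18760, a gene of the ribosomal protein S6 family (0.78), AT4G21620, for a glycine-rich protein (0.73), and ENODL19, for an early nodulin-like protein (0.61). Also called were the pseudogenes AT3G29120 and AT5G44925, at means of 2.06 and 1.41 CPM in SALK_012253, against 0.61 and 0.18 CPM in Col. AT5G44925 held 0 counts in Col replicate 3 and few in the other Col libraries, so its log2 change of 2.71 is uncertain. It stood at 2.78 at 10 mM, where it was not called (adjusted p of 0.0763) but was with the replicate block (0.0468).

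Of the 8 genes lower than Col at 1 mM, AT5G08250 was described above. CYP702A6, another cytochrome P450 gene, had 8.49, 9.88, 7.45 and 8.76 CPM in SALK_012253, against 13.1, 17.3, 12.9 and 13.9 CPM in Col (log2 change -0.73 ± 0.16 SE, adjusted p of 0.0403, edgeR). The prenyltransferase gene cPT5 had 23.4, 25.8, 33.2 and 27.5 CPM in SALK_012253, against 39.0, 46.1, 45.6 and 45.1 CPM in Col (-0.69 ± 0.14, adjusted p of 0.011). AT5G59530, of the family of 2-oxoglutarate dependent oxygenases, had 93.7, 73.6, 95.4 and 97.9 CPM in SALK_012253, against 118, 160, 146 and 151 CPM in Col (-0.67 ± 0.13, adjusted p of 0.011). In each of these 3 genes all 4 SALK_012253 libraries lay below all 4 Col libraries. The others were AT1G14070 (-0.91), AT2G36430 (-0.83), the glycosyltransferase family gene AT3G10320 (-0.80) and AT2G18420, a GASA family gene at 0.58 CPM in SALK_012253 against 2.47 CPM in Col (-1.97). Of all 8, AT5G08250 alone was called against the other 7 SALK lines.

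At 10 mM the pair called besides the 3 shared genes differed from Col and not from the other SALK lines. ARP9, for an actin-related protein, had 8.09, 5.58, 6.78 and 7.24 CPM in SALK_012253, against 17.0, 16.2, 10.6 and 11.5 CPM in Col (log2 change -1.002 ± 0.192 SE, adjusted p of 0.0182, edgeR). It averaged 7.44 ± 1.29 CPM in the other 7 SALK lines, and its log2 change at 1 mM was -0.62 (adjusted p of 0.0845, and 0.0132 with the replicate block). AT5G46295, of unknown function, had 2.97, 3.31, 2.39 and 2.66 CPM in SALK_012253, against 0.66, 0.99, 0.26 and 0.40 CPM in Col (2.15 ± 0.43, adjusted p of 0.0273), and averaged 2.66 ± 1.44 CPM in the other 7 SALK lines. ARP9 was not called in 5 of the 8 fits that left out 1 replicate, namely SALK_012253 replicates 2, 3 and 4 and Col replicates 1 and 2. AT5G46295 was lost without any 1 SALK_012253 replicate and without Col replicates 1, 3 or 4.

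**Figure D5:**
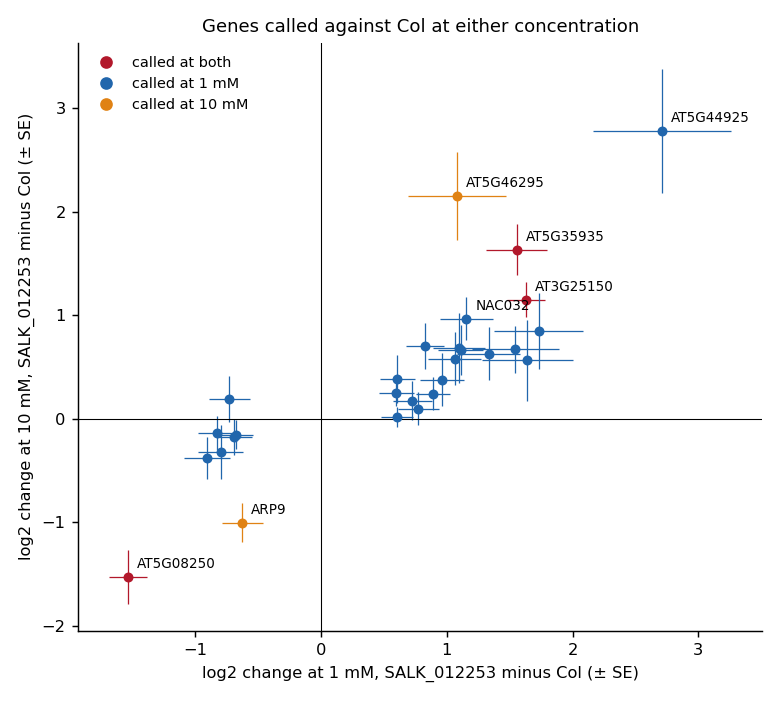
Log2 change against Col at 1 mM KNO3 (horizontal axis) and at 10 mM KNO3 (vertical axis), SALK_012253 minus Col with SE, of the genes called at either concentration and tested at both. Red points were called at both, blue at 1 mM and orange at 10 mM; of the 26 genes called at 1 mM and tested at 10 mM, 25 had the same sign there, CYP702A6 being the exception.

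Whether the line's difference from Col depends on nitrate was tested over the libraries of all 13 lines at both concentrations. No gene of 19664 was called (0%) by edgeR for a difference between the effects at 10 mM and 1 mM, by DESeq2 or by limma-voom, while 885 had an unadjusted p under 0.05 by edgeR (4.5%). With the replicate number as a block 1 gene was called, NSP3, a nitrile-specifier gene of glucosinolate breakdown, with a difference of 1.45 ± 0.27 (SE; adjusted p of 0.0158, against 0.784 without the block). The 27 genes called at 1 mM had a median size of 0.96 on the log2 scale there, and in the direction called the median at 10 mM was 0.47. They were chosen for their size at 1 mM, and the difference between concentrations was not called for any of them. The 5 genes with the smallest p for this difference were AT5G49840, AT1G04990, AT2G38090, AT1G52600 and AT5G57080, each at an adjusted p of 0.784. AT5G49840, a Clp protease family gene, averaged 18.0 ± 1.14 CPM in SALK_012253 and 12.2 ± 1.19 CPM in Col at 1 mM, and 18.7 ± 1.92 CPM in SALK_012253 and 21.8 ± 1.80 CPM in Col at 10 mM. In this gene the SALK_012253 means at the 2 concentrations lay closer together than the Col means. A change between concentrations within either line was not tested.

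Against the other 7 SALK lines 6 of 19388 genes were called at 1 mM (0.0309%), 5 higher (0.0258%) and 1 lower (0.00516%), with 559 at an unadjusted p under 0.05 (2.88%; 1.87% higher and 1.02% lower). At 10 mM 2 of 19157 were called (0.0104%), both higher, with 501 at an unadjusted p under 0.05 (2.62%; 1.33% higher and 1.28% lower). Besides NAC032, AT5G08250 and AT1G03820, these were LBD4, TBL36 and AT1G76510 at 1 mM and AT5G61590 at 10 mM. Of these 4, LBD4, AT1G76510 and AT5G61590 were each very low in 1 of the 7 lines, and TBL36 was less strongly lowered in 1. LBD4, a LOB-domain transcription factor gene, averaged 22.1 ± 2.71 CPM in SALK_012253 and 16.4 ± 4.78 CPM in Col, against 0.53 ± 0.27 CPM in SALK_146141 and 14.7 to 21.5 CPM in the other 6 SALK lines. TBL36, of a family of wall polysaccharide acetyltransferases, averaged 29.2 ± 2.46 CPM in SALK_012253 and 18.1 ± 3.40 CPM in Col, against 7.64 ± 0.60 CPM in SALK_146141. AT1G76510, for an ARID domain protein, averaged 10.81 ± 0.52 CPM in SALK_012253, 13.3 ± 2.36 CPM in Col and 0.61 ± 0.15 CPM in SALK_035980. AT5G61590, known as DEWAX, a repressor of wax synthesis, averaged 141 ± 20.7 CPM in SALK_012253, 195 ± 30.7 CPM in Col and 2.27 ± 0.41 CPM in SALK_015182 at 10 mM. None of the 4 was called against Col in this fit. TBL36 (log2 change 0.68, adjusted p of 0.0633) was called against Col at 1 mM in 5 alternatives, among them the replicate block (0.00946), strip as a covariate (0.00874) and DESeq2 (0.0204). With the replicate block 14 genes were called against the 7 lines at 1 mM and 4 at 10 mM, and without SALK_146141 among the references 3 genes were called at 1 mM in place of 6.

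Genes of nitrogen use were counted next, because the series varies nitrate. Nitrate enters root cells through NRT transporters, is reduced by nitrate reductase and nitrite reductase, and is built into amino acids by glutamine and glutamate synthases. None of the 12 high-affinity uptake genes, 12 genes of nitrate reduction and reductant supply, 15 tested genes of ammonium assimilation or 22 nitrate-responsive regulators was called against Col at 1 mM, nor was any tested member of these lists at 10 mM. With 0.139% of all genes called at 1 mM and 0.0261% at 10 mM, such counts of 0 say little about these lists. With the replicate block, where 1.4% of all genes were called at 1 mM, the urea transporter gene DUR3 (-0.57, adjusted p of 0.00276, edgeR), the glutamate synthase gene GLU2 (-0.40, 0.0387) and the regulator gene LBD38 (0.65, 0.00661) were called. At 1 mM the median log2 changes of these lists were -0.26, -0.02, -0.05 and 0.13, and at 10 mM 0.10, 0.16, 0.08 and 0.04. NIA2, a nitrate reductase gene, averaged 323 ± 37.6 CPM in SALK_012253 and 423 ± 68.2 CPM in Col at 1 mM (log2 change -0.39, adjusted p of 0.268, edgeR), and 99.03 ± 21.0 CPM in SALK_012253 and 77.4 ± 9.16 CPM in Col at 10 mM (0.35, 0.722). NRT2.5, a transporter gene of nitrogen-starved plants, averaged 1.98 ± 1.2 CPM in SALK_012253 and 3.91 ± 0.07 CPM in Col at 1 mM (-1.005, 0.342). The regulator gene BT2 averaged 11.9 ± 1.19 CPM in SALK_012253 and 7.62 ± 3.04 CPM in Col at 1 mM (0.67, 0.285).

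The other lists hold responses with which ATAF genes have been linked, and nutrient and hormone responses. Over 27 lists with 331 members, 290 were tested at 1 mM against Col and NAC032 was the only 1 called (background 0.139%), with 58 at an unadjusted p under 0.05 (20%, against 12.3% of all genes). With the replicate block 11 of the 290 were called (1.4% of all genes were), and with strip as a covariate 16 (2.54% of all genes). At 10 mM 291 were tested and 0 called, with 20 at an unadjusted p under 0.05 (6.87%, against 6.86%). Against the other 7 SALK lines 15 of the 290 had an unadjusted p under 0.05 at 1 mM (5.17%, against 2.88% of all genes). At 10 mM 8 of the 291 did (2.75%, against 2.62%). The lists were written with earlier results of these data known, so these shares are a description. All 11 tested genes of aliphatic glucosinolate synthesis lay above 0 against Col at 1 mM, with a median of 0.36, and 9 of 11 at 10 mM, with a median of 0.13. The largest of them was MAM3, which sets chain length, with 147 ± 30.6 CPM in SALK_012253 and 90.5 ± 22.6 CPM in Col at 1 mM (log2 change 0.70, adjusted p of 0.24, edgeR, and 0.0411 with the replicate block). Against the other 7 SALK lines these 11 also lay above 0 at 1 mM, with a median of 0.12. In carbon starvation and senescence 9 of 20 lay above 0 at 1 mM (median -0.12) and 5 of 21 at 10 mM (-0.24). Salicylic acid and immune genes had medians of -0.04 and 0.37, and the list's NIMIN1 averaged 1.71 ± 0.85 CPM in SALK_012253 and 0.90 ± 0.23 CPM in Col at 10 mM (0.88, adjusted p of 0.722). Jasmonate genes had medians of 0.00 and -0.10, and the storage protein gene VSP2 averaged 10.41 ± 3 CPM in SALK_012253 and 5.62 ± 2.77 CPM in Col at 1 mM (0.87, 0.323, and 0.0341 with the replicate block).

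In the same order of concentrations, 1 mM and then 10 mM, the list medians against Col were 0.26 and -0.04 for flavonoids and anthocyanins, 0.09 and 0.03 for abscisic acid and dehydration, and -0.17 and 0.22 for xenobiotic and mitochondrial stress. They were -0.12 and 0.13 for indole glucosinolates, 0.01 and 0.07 for iron deficiency, -0.11 and -0.05 for phosphate starvation and -0.04 and -0.07 for sulfate starvation. They were 0.27 and 0.12 for low oxygen, 0.22 and -0.06 for cytokinin and 0.11 and 0.16 for auxin response. Of the 27 lists none had a median of 0.2 or more in size in the same direction at both concentrations.

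Markers of root cell types were set beside these results, since in bulk roots fewer cells of a type and less RNA per cell cannot be told apart. The endodermis markers, genes of the Casparian strip and suberin, summed to 778 to 918 CPM in SALK_012253 and 922 to 1155 CPM in Col at 1 mM, without overlap, and the other 7 SALK lines held 769 to 1023 CPM. Of the 13 members 10 lay below 0 (median -0.28), among them ESB1 with 195 ± 29.8 CPM in SALK_012253 and 254 ± 53.9 CPM in Col (log2 change -0.39, adjusted p of 0.192, edgeR), and none was called, though CASP2 was with the replicate block (-0.35, 0.049). Against the other 7 SALK lines 5 of the 13 endodermis markers lay above 0 at 1 mM, with a median of -0.03. At 10 mM the endodermis sums overlapped, with 800 to 1017 CPM in SALK_012253 and 867 to 938 CPM in Col. The sums of the root hair, xylem, phloem, root cap, dividing cell, photosynthetic and seed markers overlapped between SALK_012253 and Col at both concentrations. All 7 tested photosynthetic markers lay above 0 against Col at 1 mM, with a median of 0.53, and 3 of 9 at 10 mM, with a median of -0.27. Of the 9 root hair markers 1 lay above 0 at 1 mM (median -0.13) and 5 at 10 mM (0.02). At 1 mM and 10 mM the medians were 0.01 and 0.24 for xylem, 0.33 and 0.04 for phloem, 0.31 and 0.13 for root cap and 0.07 and 0.11 for dividing cells. Photosynthetic markers summed to few tags, at 25.6 to 36.6 CPM in SALK_012253 and 21.5 to 28.2 CPM in Col at 1 mM over 10 genes, and RBCS1B had no count in either. Whether the makeup of the roots has a part in the calls against Col was not tested.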

How the data were processed

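Root transcripts of 13 Arabidopsis lines were measured at 2 nitrate concentrations with 4 replicates each, and the members and gene lists used here were chosen with earlier results of these data known. The authors deposited whole-number counts per locus, 2 sequencing runs per library. TAIR10, HTSeq, Bowtie, SAMtools, FastQC and limma are named per the submitters' processing notes, with versions, roles and strand setting not given in the sources used here, so overlapping and antisense genes cannot be told apart and near-identical family members may share tags. The runs were summed and 279 organelle loci, at 0 in run 2, were left out, leaving 33323 loci. RefSeq names matched 32835 loci. Genes were filtered with filterByExpr (minimum count 10), scaled by TMM and tested with edgeR 4.0.16 quasi-likelihood (R 4.3.3) over all 13 lines of a concentration (39 residual degrees of freedom), with Benjamini-Hochberg adjustment at 0.05. Standard errors are the log2 change divided by the square root of F. Alternatives were DESeq2 1.42.0, limma 3.58.1, other filters, scalings, designs and single runs. The difference between concentrations came from 1 fit over 26 groups. The text names up to 12 genes per direction and concentration at 5 CPM or more, called genes and the most changed list members. It also names the gene lowest against the mean of the other 12 lines. Single genes outside this rule were chosen after their values were seen. They are AT3G29120, AT5G44925, AT2G18420, AT5G46295, EXPA4, EXPB3, EMB2768, NSP3, DUR3, GLU2, LBD38, CASP2 and MRD1. Replicates of a group differed by 4.76 to 17.4 in chi-square per degree of freedom over 24 pairs, more than sampling noise. Same-numbered SALK_012253 and Col libraries correlated by -0.041 to 0.376 at 1 mM and 0.095 to 0.422 at 10 mM, over 0.1 in 6 of 8 pairs, and 7 of the 8 pairs stand on 1 strip.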

Additional observations from a re-analysis of the deposited data

Results flagged for a closer look

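Of 66 groups of 4 libraries examined, 4 held a library far from its others, measured as its gap to the nearest library over the group's range (above Dixon's critical value), and chance flags about 1 in 20 groups. EXPA6 had 20.2 CPM in SALK_012253 replicate 4 at 1 mM, while its other libraries had 30.53 to 31.36 CPM. AT5G59530 had 73.62 CPM in SALK_012253 replicate 2 at 1 mM, while its other libraries had 93.73 to 97.87 CPM. AT5G66540 had 26.4 CPM in SALK_012253 replicate 3 at 1 mM, while its other libraries had 35.39 to 36.47 CPM. cPT5 had 39.01 CPM in Col replicate 1 at 1 mM, while the other Col libraries had 45.09 to 46.1 CPM.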

How the results depend on the processing

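Over the genes named and all alternatives, 1848 of 2090 values kept their direction and side of the threshold, 185 lost a call, 28 gained one and 29 changed sign. Same-numbered SALK_012253 and Col libraries share a strip in 7 of 8 pairs and correlate over 0.1 in 6 of 8, so the numbers pair them in part and both fits are given. With the number as a replicate block, 271 genes were called for SALK_012253 against Col at 1 mM, 8 against Col at 10 mM, 14 and 4 against the other 7 SALK lines at 1 mM and 10 mM, 1 for the difference between concentrations and 6 at both concentrations. With only the 2 groups and the replicate block there were 329, 14 against the 7 lines at 1 mM and 5 at both, and without the block 3 against Col and 1 against the 7 lines at 10 mM. With strip as a covariate there were 493 and 10 against Col, 13 and 4 against the 7 lines, and 6 at both. One fit of all libraries gave 4 against the 7 lines at 10 mM, DESeq2 103 and no low-count filter 43 against Col at 1 mM. DESeq2 gave no adjusted p to 11 of the 27 genes, NAC032 among them, and called the other 16. Run 1 alone gave 3 and 1 against Col, 1 and 1 against the 7 lines and 1 at both. Run 2 alone gave 11 and 2 against Col and 1 against the 7 lines at 10 mM, and NAC032 against Col at 1 mM had a log2 change of 0.9403. Without SALK_146141 there were 3 against the 7 lines at 1 mM, and without SALK_035980 there was 1 at 10 mM. Leaving out 1 replicate gave 11 to 142 and 3 to 5 against Col, and 3 to 6 and 1 to 2 against the 7 lines.

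Sign changes were all of small log2 changes that were not called, except for AT5G61590 at 10 mM without SALK_015182 (-0.0961) and AT1G76510 at 1 mM without SALK_035980 (-0.0369), both against the 7 lines. NAC102 against Col was -0.02 with strip and -0.1672 with run 2 at 10 mM, and 7e-04 with upper-quartile factors and 0.2171 with run 1 at 1 mM. Run 1 also gave -0.2129 for CYP702A6 and -0.015 for TBL36 against Col at 10 mM. AT3G25150 against the 7 lines was -0.0037 with strip at 10 mM and -0.028 with run 2 at 1 mM, and AT4G21620 against Col at 10 mM was -0.0879 with run 2. Leaving out 1 replicate, NAC102 ran from -0.1229 to 0.038 at 1 mM and -0.053 to 0.1716 at 10 mM, AT3G25150 against the 7 lines from -0.0077 to 0.0827 at 1 mM and -0.011 to 0.1923 at 10 mM. At 10 mM against Col the ranges were -0.1433 to 0.0105 for AT1G76510, -0.0222 to 0.2081 for TBL36, -0.0462 to 0.0721 for AT1G52600 and -0.242 to 0.0564 for AT5G59530. Apart from the references left out, the cause was not tested.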
